A study of Mus musculus with 2 samples.

Results

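Genes for the proteins that carry out and steer the splicing of messenger RNA precursors were compared between the skeletal muscle of RXRγ mice and that of non-transgenic controls. They were taken by name, as every probe set for which the platform annotation gives a single gene symbol that starts with Srsf, Sf3a, Sf3b, Hnrnp or Snrp. On these arrays a transcript is read by a set of short oligonucleotides, the probe set. The rule gave 47 genes of the 18194 named in this way, on 139 probe sets: 10 Srsf genes, 3 Sf3a genes, 6 Sf3b genes, 19 Hnrnp genes and 9 Snrp genes. The RXRγ mice carry an RXRγ transgene under the human α-actin promoter, which drives expression in skeletal muscle, and come from 1 transgenic line (4-3). The animals of both genotypes were females at 4 months of age, and C57BL6 is the only strain that the study's methods name. Pooled RNA of each genotype went to 1 array (Affymetrix MG430), and the series design gives 5 animals per pool while the extraction protocol gives 3. With 1 array per genotype the values have no error and no test between the genotypes was possible.

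Splicing removes introns from precursor RNA in the spliceosome, which is built from small nuclear ribonucleoproteins (snRNPs), each a small RNA with its proteins. The Sm proteins form a ring on these RNAs, and SF3a and SF3b hold the U2 snRNP to the branch site of the intron. SR proteins, encoded by the Srsf genes, mostly promote the use of a nearby exon, while heterogeneous nuclear ribonucleoproteins (hnRNPs) coat the RNA and often repress it, and the balance between them decides which exons are kept. Skeletal muscle is known for its many tissue-specific exons, such as those of the troponin T genes.

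The transgene product was higher in RXRγ mice: Rxrg had 9172 in RXRγ mice and 334.5 in control mice. Signals are linear array units, with a trimmed mean of 100.0 on both arrays. The 8 markers of skeletal muscle fibres checked were among the brightest genes, with signals between 5703 and 12766 in RXRγ mice and between 6647 and 15037 in control mice. Their log2 ratios, always taken as RXRγ over control mice, all lay below 0 (-0.81 to -0.075), and 3 of them, Myh2, Ckm and Myh4, were lower by at least 0.4. Ckm and Myh4 had probe sets that disagreed in size, with log2 ratios of -0.11 and -1.39 for Ckm and -0.062 and -0.77 for Myh4, the brighter probe set first. Of 19 markers of other cell types, 16 had a probe set and 5 reached a signal of 250, with log2 ratios from -0.22 to 0.25. Their summed signal was 7191 in RXRγ mice, against 6550 in control mice, most of it from the fibroblast marker Dcn (4575 and 4126). The endothelial markers Pecam1, Cdh5, Kdr and Tek stayed under 250, each with the lower signal in RXRγ mice. The leukocyte markers Ptprc and Cd68, also under 250, had the higher signal in RXRγ mice. The haemoglobin gene Hba-a1 had 0.9 in RXRγ mice and 1.7 in control mice. The part of these differences in the values below was not tested, and in whole muscle fewer cells of a type and less RNA per cell cannot be told apart.

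Splicing factor and hnRNP genes differed little between the genotypes. A gene was taken as measured when a probe set exceeded a signal of 250 on the brighter array, its value was the mean log2 ratio of such probe sets, and it was called higher or lower where this value reached 0.4 in size. By this rule 38 of the 47 genes were measured. Hnrnpr and Hnrnpa0 were higher in RXRγ mice, Snrpd3 was lower, and the remaining 35 stayed within 0.4. In either direction 7.89% of the splicing genes were called, against 36.9% of all 3780 measured genes, of which 16.8% were higher and 20.1% were lower. With only probe sets above 250 on both arrays, 2 of 36 splicing genes were higher and 1 was lower. Of all genes, 12.1% were then higher and 16.4% lower. The median log2 ratio of the 38 genes was 0.023, with 20 genes above 0 and 18 below (14 and 24 under median scaling of the arrays), and that of all genes was -0.041. Without probe sets that can match several transcripts (names ending in _x_at or _s_at), 15 splicing genes lay above 0 and 18 below, with a median of -0.034. The median size of the log2 ratio, whatever its direction, was 0.19 for the splicing genes and 0.29 for all genes. The signals of the 38 genes summed to 23127 in RXRγ mice and 23267 in control mice.

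**Figure D1:**
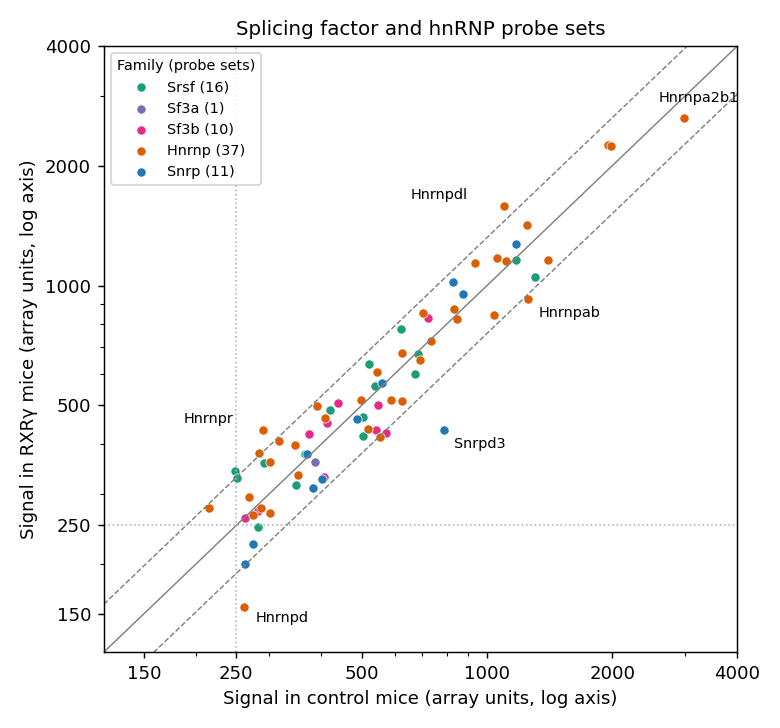
Signal in RXRγ mice (vertical) against signal in control mice (horizontal), in array units on log axes, for the 75 probe sets whose brighter array exceeded 250, 1 point per probe set, coloured by gene family. Signals are equal along the solid line and differ by 0.4 (log2) along the dashed ones, and dotted lines stand at 250; most points lie between the dashed lines, and Snrpd3 (435.0 in RXRγ mice, 786.9 in control mice) lies furthest below them.

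The count was also taken by number of probe sets and by brightness. Among genes with 1 measured probe set, 2 of 19 splicing genes were called, against 37.2% of all such genes. Among genes with 2 or more, 1 of 19 was called, against 36.4%. Genes with a mean signal under 500 gave 2 calls among 21 splicing genes, against 40.7% of all genes in that range. Between 500 and 1000, 1 of 10 splicing genes was called, Snrpd3, against 34.7%, and the 7 above 1000 gave 0 calls, against 28.9%. Counted by probe set, 4 of 75 were higher and 5 were lower by 0.4 or more, while over all 5538 probe sets 17.2% were higher and 20.9% were lower. The log2 signals of the 75 probe sets on the arrays correlated with r = 0.945, and those of all 5538 with r = 0.852, although probe sets share the arrays and some share a gene.

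The snRNP proteins held the largest difference. Snrpd3 encodes SmD3, a member of the Sm ring of the spliceosomal snRNPs, and had 435.0 in RXRγ mice and 786.9 in control mice. It was 1.81-fold lower (log2 ratio -0.86). Its other probe sets, which did not reach 250, had 114.3 in RXRγ mice against 166.6 in control mice, and 57.4 against 81.6, so that all 3 had the lower signal in RXRγ mice. The other measured Sm genes were not called. Snrpb, which encodes SmB, had a mean of 987.7 in RXRγ mice, against 851.1 in control mice (log2 ratio 0.21). Snrpe was the brightest of the Snrp genes, with 1274 in RXRγ mice, against 1175 in control mice (0.12). Snrpf had 378.2 and 369.8 (0.032), and Snrpg 396.7 and 415.9 (-0.13). The brighter Snrpg probe set had 568.5 in RXRγ mice and 558.2 in control mice (0.026). The other had 224.8 and 273.6 (-0.28), above 250 in control mice only. Among Snrp genes for proteins of a single snRNP, Snrpa1 and Snrpb2 of U2 lay below 0. Snrpa1, for the A′ protein of U2, had 199.6 in RXRγ mice and 262.6 in control mice, and its log2 ratio of -0.396 stopped just short of the threshold. Snrpa1 passed the filter on the control array only. Its other probe sets, under 250, had 224.1 in RXRγ mice against 236.3 in control mice (-0.076), and 136.1 against 186.4 (-0.45). Snrpb2, for the B″ protein of U2, had log2 ratios of -0.29 and -0.31 at its 2 probe sets, with mean signals of 318.6 in RXRγ mice, against 392.1 in control mice. The U1 gene Snrpc had 462.7 and 486.6 (-0.073). The 8 measured Snrp genes had a median log2 ratio of -0.10, and 3 of them lay above 0. The sign of this median depended on the filter. With probe sets above 250 on both arrays, it was 0.026, with 4 of 7 genes above 0. Under median scaling it was -0.20, with 2 of 8 above 0.

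The Sf3a and Sf3b genes held no call. Sf3b1, whose product lies at the branch site and is the largest subunit of SF3b, averaged 588.5 in RXRγ mice and 604.1 in control mice over 3 probe sets, with log2 ratios of -0.32, -0.12 and 0.20. Sf3b5, a small subunit, came closest to the threshold. One probe set had 425.6 in RXRγ mice and 573.3 in control mice, the other 330.1 and 405.6, and their mean log2 ratio was -0.36. Sf3b6, whose product contacts the branch-point adenosine, had the higher signal in RXRγ mice at both probe sets, with 508.6 in RXRγ mice, against 437.8 in control mice at one and 423.4 and 374.4 at the other (mean log2 ratio 0.20). Sf3b2 (0.020) and Sf3a2 (-0.096) had nearly equal signals on both arrays. Of the 4 measured Sf3b genes, 2 lay above 0 and 2 below.

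All 7 measured Srsf genes stayed within 0.4, and their median log2 ratio was 0.10, with 4 genes above 0 and 3 below. Under median scaling this median was 0.0021. By the brightest probe set it was -0.014, with 3 genes above 0 and 4 below. Srsf4, a long SR protein, had 328.6 in RXRγ mice and 251.5 in control mice (log2 ratio 0.39). Srsf11 had 635.3 and 519.9 (0.29). Srsf3, the smallest of the classical SR proteins, had a mean of 459.0 in RXRγ mice, against 407.3 in control mice (0.25). Its probe sets disagreed in size: the brightest had 675.2 in RXRγ mice and 682.8 in control mice, the next 359.3 and 291.3, and the third 342.5 and 247.8, the last with a log2 ratio of 0.47 and above 250 in RXRγ mice only. Srsf1, the founding SR protein SF2/ASF, had log2 ratios from -0.14 to 0.32 at 5 probe sets and a mean of 0.10. Srsf2, known as SC35, had 1160 in RXRγ mice and 1172 in control mice (-0.014), the smallest change among the Srsf genes. On the low side were Srsf5, with 1051 in RXRγ mice, against 1306 in control mice (-0.31), and Srsf6, whose 4 probe sets lay between -0.27 and -0.11.

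The 18 measured Hnrnp genes had a median log2 ratio of 0.077, and 11 of them lay above 0, but under median scaling the median was -0.051 and 7 lay above 0. Without the _x_at and _s_at probe sets the median was -0.012, and 8 of 17 Hnrnp genes lay above 0. Hnrnpr, an RNA-binding protein related to Syncrip, was 1.38-fold higher in RXRγ mice. The brighter of its measured probe sets had 498.1 in RXRγ mice and 390.0 in control mice (0.35), and the other 433.9 and 289.3 (0.58). Of its 3 dimmer probe sets, 2 had the higher signal in RXRγ mice (187.6 against 143.4, and 57.2 against 50.7) and 1 the lower (10.4 against 20.3). Hnrnpa0, a small relative of hnRNP A1, had a single probe set, with 378.9 in RXRγ mice, against 283.5 in control mice (log2 ratio 0.42). Both calls lay near the threshold, and under median scaling of the arrays, where the median of all genes was -0.152 in place of -0.041, their log2 ratios were 0.37 and 0.32. Without a signal filter that of Hnrnpr was 0.11, and by its brightest probe set alone 0.35. Just short of the threshold were Hnrnpa1, with 407.5 in RXRγ mice, against 316.1 in control mice (0.37), and Hnrnph3, with 275.7 and 215.1 (0.36), which passed the filter on the RXRγ array only. The direction of Hnrnpa1 is uncertain. Another of its probe sets, with 194.5 in RXRγ mice, against 249.4 in control mice (-0.36), narrowly missed the filter, and the gene value was -0.094 under median scaling and 0.0039 with a filter of 150. The probe set used is also of the kind that can match other transcripts, and the annotation gives further Hnrnpa1 probe sets together with other genes.
Hnrnpa2b1 was the brightest of all these genes by a single probe set, with 2631 in RXRγ mice, against 2971 in control mice. Its product, hnRNP A2/B1, represses exons and binds RNAs in transport. Its 4 probe sets all lay below 0, between -0.404 and -0.18, with a mean of -0.29. Hnrnph1, which binds runs of G, had 1159 in RXRγ mice, against 1402 in control mice (-0.27), its X-linked relative Hnrnph2 had 516.6 and 589.0 (-0.19), and Hnrnpf, of the same subfamily, had -0.051. Hnrnpk, which binds C-rich RNA, had a mean of 1353 in RXRγ mice, against 1184 in control mice (0.19), with all 3 probe sets above 0. Hnrnpc (0.068) and Hnrnpu (0.086), abundant proteins of nuclear RNA and chromatin, lay close to 0, as did Hnrnpll (-0.049), Hnrnpm (0.14) and Hnrnpul2 (0.16). Hnrnpul1, related to Hnrnpu, had -0.25.

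**Figure D2:**
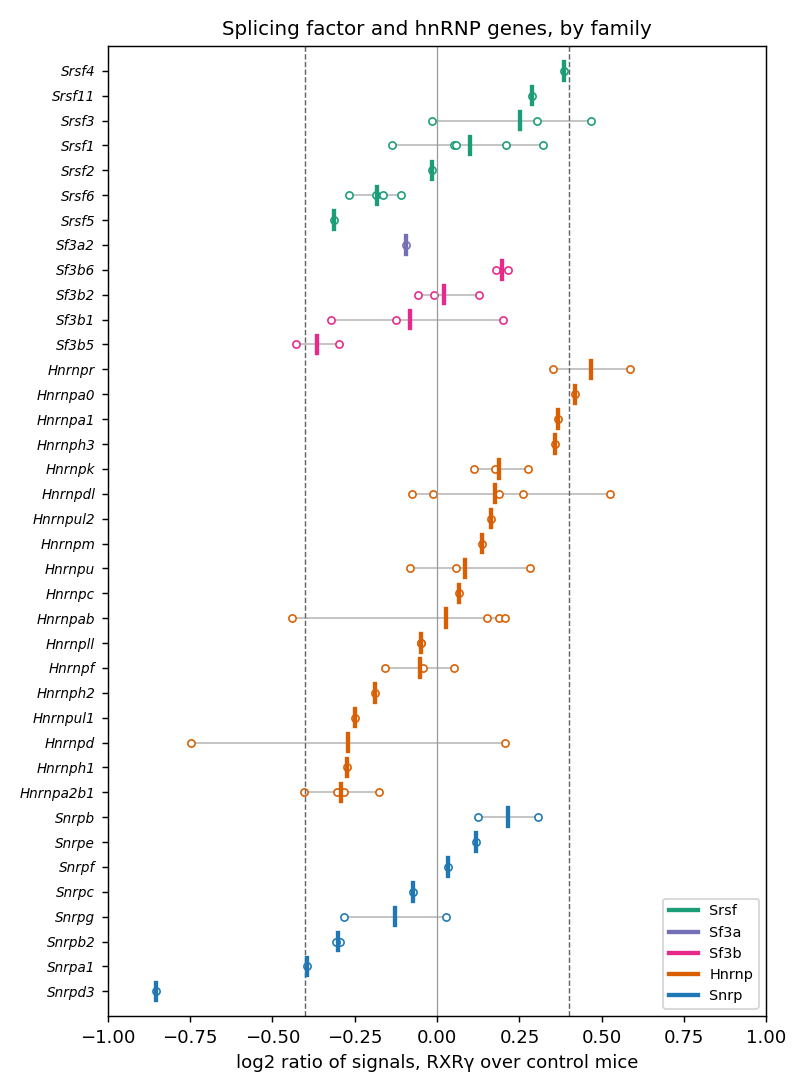
log2 ratio (RXRγ over control mice) of each of the 38 measured genes, ordered within each family from high to low. Vertical bars are gene values (means over probe sets), open circles single probe sets and dashed lines stand at 0.4 and -0.4; only the bars of Hnrnpr (0.47), Hnrnpa0 (0.42) and Snrpd3 (-0.86) lie beyond the dashed lines, and the widest spread within a gene is that of Hnrnpd.

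Within some hnRNP genes the probe sets differed more from each other than the gene did between genotypes. Among the 19 splicing genes with several measured probe sets, the log2 ratios of a gene spanned a median of 0.23, against 0.20 over all such genes. Hnrnpd, which encodes the AU-rich element binding protein AUF1, had the widest span (0.95). Its brighter probe set had 398.1 in RXRγ mice and 345.3 in control mice (0.21), and the other had 155.7 in RXRγ mice and 261.3 in control mice (-0.75), passing the filter on the control array only. Hnrnpab had 3 probe sets between 0.15 and 0.21, among them one with 2253 in RXRγ mice, against 1951 in control mice. The other had 925.2 in RXRγ mice and 1257 in control mice (-0.44). Hnrnpdl, a close relative of Hnrnpd, also had 1 probe set apart from the others. Its brightest probe set had 1583 in RXRγ mice and 1101 in control mice (0.52), while the other 4 lay between -0.075 and 0.26. Which transcript variants these probe sets measure was not analysed here.

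**Figure D3:**
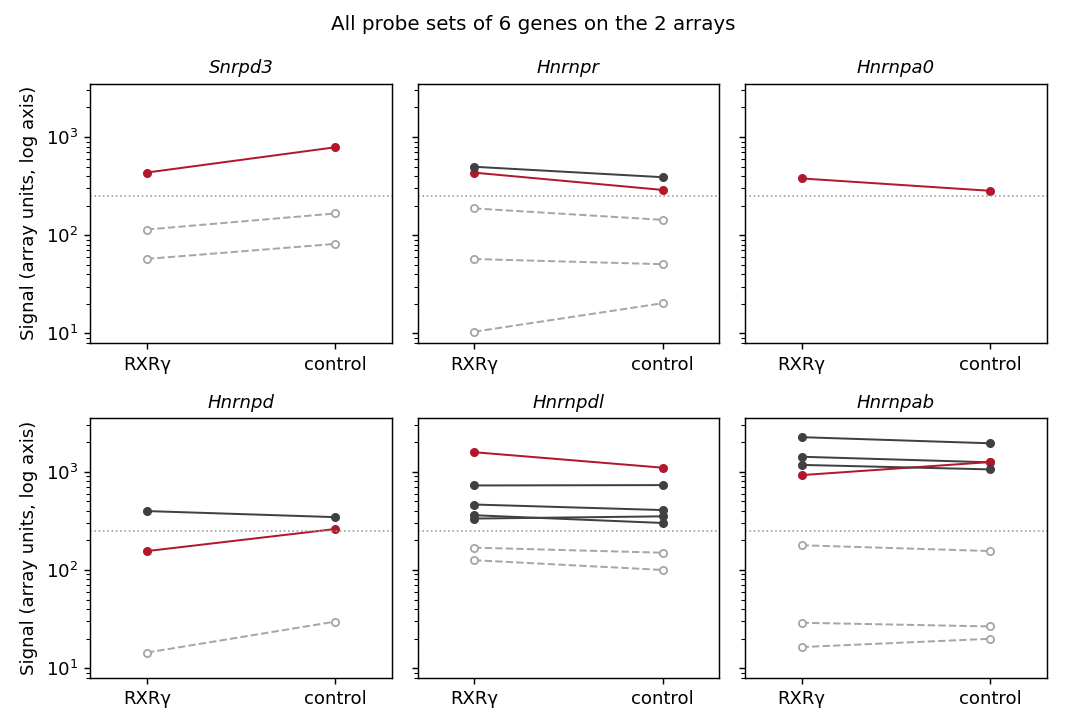
Signals of every probe set of 6 genes in RXRγ mice (left in each panel) and control mice (right), in array units on a log axis, 1 line per probe set. Red lines are measured probe sets with a log2 ratio of at least 0.4 in size, dark grey lines other measured probe sets, and dashed light lines probe sets at or under 250 (dotted line) on both arrays; the 3 lines of Snrpd3 all run lower in RXRγ mice, while those of Hnrnpd and Hnrnpab run in both directions.

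The remaining 9 genes did not reach 250 on either array and have no value above. The closest were Srsf9, with 209.4 in RXRγ mice, against 203.8 in control mice, Srsf10, with 199.0 and 197.9 at its brightest probe set, and Sf3b4, with 161.5 and 193.2. Hnrnpl, Sf3a1, Sf3a3 and Sf3b3 had no probe set above 150. Srsf12 (4.7 and 0.5) and the only probe set named for Snrpn alone (11.9 and 2.1) were near the bottom of the scale. However, 4 probe sets listed for Snurf and Snrpn together exceeded 250 and are given under other observations. Of the 75 measured probe sets, 69 exceeded 250 on both arrays, 2 in RXRγ mice only and 4 in control mice only, and a probe set that passed on 1 array alone had to differ.

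Upstream sequence was taken from RefSeq (GRCm38.p6) for the 3 called genes, to show what the promoters of such widely expressed genes look like. Windows were held for 42 of the 47 genes. Each line gives the 120 bases before an annotated start, 5′ to 3′ on the strand of the gene, with CpG dinucleotides in capitals, and Hnrnpr has 2 annotated starts.
Snrpd3 (chr10:75517922-75518041, plus strand): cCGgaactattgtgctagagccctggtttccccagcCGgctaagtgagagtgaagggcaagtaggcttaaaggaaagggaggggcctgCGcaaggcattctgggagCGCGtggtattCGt
Hnrnpr (chr4:136310822-136310941, plus strand): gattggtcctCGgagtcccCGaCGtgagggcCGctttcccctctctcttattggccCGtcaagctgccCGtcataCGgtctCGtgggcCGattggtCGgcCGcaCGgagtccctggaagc
Hnrnpr (chr4:136311478-136311597, plus strand): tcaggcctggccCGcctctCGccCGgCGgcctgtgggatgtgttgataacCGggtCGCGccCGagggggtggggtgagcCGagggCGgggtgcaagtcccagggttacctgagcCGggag
Hnrnpa0 (chr13:58128557-58128676, minus strand): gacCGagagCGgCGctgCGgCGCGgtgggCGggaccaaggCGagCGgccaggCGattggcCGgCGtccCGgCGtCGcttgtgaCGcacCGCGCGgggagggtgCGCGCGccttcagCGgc
The windows hold 6 CpG for Snrpd3, 12 and 11 for Hnrnpr and 23 for Hnrnpa0. Over the 250 bases before the start, the ratio of observed to expected CpG was 0.53 for Snrpd3, 0.80 and 0.85 for Hnrnpr and 1.15 for Hnrnpa0. It was at least 0.6 in 51 of the 58 windows of splicing genes (87.9%), with a median of 0.88, and in 34.0% of all 32851 windows, with a median of 0.37. The 4 windows of Snrpn were among the 7 below 0.6. The half-site AGGTCA, to which RXR and its partners bind in pairs, was found on either strand of 7 of the 58 windows (12.1%) and of 14.0% of all windows, and in none of the 4 windows printed. Snrpa1, Snrpf, Snrpg, Srsf3 and Hnrnph1 were the measured genes with it, and none of them was called. A match describes these letters and is not a binding site.

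Other genes of splicing were listed by function, and their counts stand beside the shares of all genes given above (16.8% higher, 20.1% lower). Of 29 measured regulators of alternative splicing outside these families, 1 was higher (3.45%) and 4 were lower (13.8%) in RXRγ mice, both shares under those of all genes, with a median log2 ratio of -0.075. Rbfox1, Rbm24 and Rbm20, which are known for their roles in muscle and heart, were among the lower genes. By sign, 12 of the 29 lay above 0 and 17 below. Celf1, which was not called, had 811.0 in RXRγ mice and 703.7 in control mice (0.34), with 3 probe sets between 0.13 and 0.53. Rbfox2, also not called, had 252.1 and 196.5 (0.36), above 250 in RXRγ mice only. Rbfox1, which binds next to muscle exons, averaged 862.2 in RXRγ mice and 1520 in control mice (log2 ratio -0.85), with all 3 probe sets between -0.96 and -0.76. Rbm24 had 741.1 in RXRγ mice and 1053 in control mice (-0.54), Celf2 had 426.5 and 637.3 (-0.56), and the titin splicing factor Rbm20 had 170.2 and 258.0 (-0.60), above 250 in control mice only. Mbnl1, whose loss of function underlies mis-splicing in myotonic dystrophy, was the brightest, with 3431 in RXRγ mice, against 4264 in control mice (-0.31). Ptbp1, which represses muscle and neuronal exons, had 267.9 in RXRγ mice and 202.7 in control mice and was at the threshold (0.40), above 250 in RXRγ mice only. Sfpq had probe sets beyond 0.4 in both directions.
Of 32 measured further spliceosome proteins, which include genes named Snrnp, 5 were higher (15.6%) and 3 were lower (9.38%), again under the shares of all genes (median -0.066). Of the 5, 4 exceeded 250 in RXRγ mice only (Ctnnbl1, Lsm7, Prpf38b and Prpf4b), and 1 of the 3, Ddx46, in control mice only, so that by the filter they could differ in that direction only. Ctnnbl1, a protein of the Prp19-associated complex, had 997.1 in RXRγ mice and 101.0 in control mice at its only probe set. Since the control array was under 150, where no fold can be given, it is stated as at least 6.65-fold higher. Lsm7, of the ring on U6 RNA, had 317.6 in RXRγ mice and 126.5 in control mice, at least 2.12-fold higher. The helicase gene Dhx15 had 997.4 and 643.2 (0.62), and Prpf38b had 274.2 and 172.0 (0.67). Of 9 measured kinases and partners of SR proteins, none was higher and 1, the nuclear speckle protein gene Srrm2, was lower (287.9 in RXRγ mice, 463.0 in control mice), with a median of -0.24. Son, another speckle protein, had -0.34 and Luc7l3 -0.35, Tnpo1, a nuclear import receptor, had -0.29, and Srpk3, the muscle kinase of SR proteins, had 0.11. Of 5 measured factors that assemble snRNPs, 1 was lower, the methyltransferase gene Prmt5 (203.1 in RXRγ mice, 291.1 in control mice, log2 ratio -0.52), which exceeded 250 in control mice only and so could not have been higher. Prmt5 methylates Sm proteins, among them the product of Snrpd3. Its partner Wdr77 had -0.35, and Clns1a and Strap had -0.15 and -0.11.

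**Figure D4:**
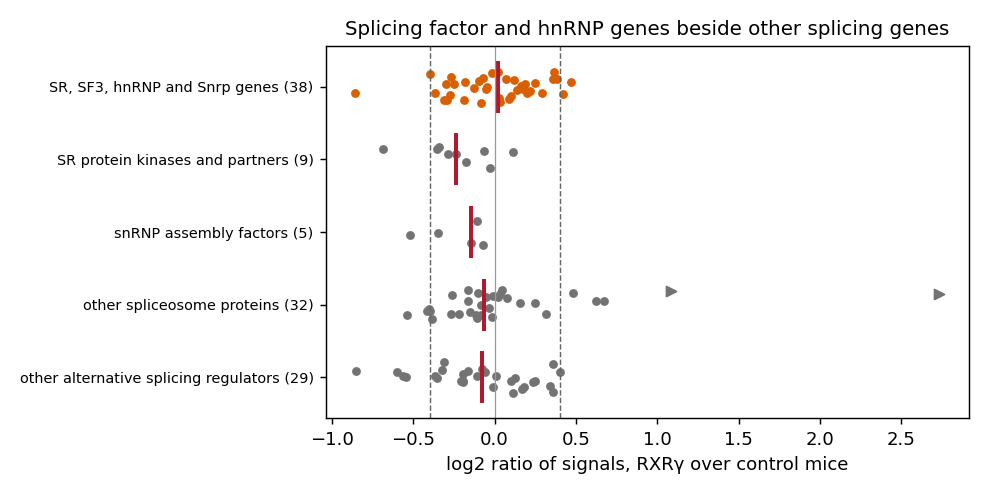
log2 ratio (RXRγ over control mice) of the 38 measured splicing factor and hnRNP genes (orange) and of 4 lists of other splicing genes (grey). Points are genes, with a vertical scatter that carries no value, triangles are lower bounds for genes under 150 in control mice, red bars are medians and dashed lines stand at 0.4 and -0.4; the orange points lie between -0.86 and 0.47, and the triangles are Ctnnbl1 (at least 2.73) and Lsm7 (at least 1.08).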

How the data were processed

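RNA of pooled skeletal muscle was hybridized to 1 array per genotype. The authors made the signals with Affymetrix software that sets perfect match against mismatch oligonucleotides. Deposited intensity values are linear and had been scaled, by a method not given in the sources used here. Present and absent calls were not used here. Of 45101 probe sets, the platform annotation gives 1 gene symbol for 34958, several for 932 and none for 9211, and only the first kind was used. Each log2 ratio was taken as RXRγ over control signal, without a pseudocount, and values under 150 on 1 array were given as a bound, the brighter signal over 150. Gene families and lists were chosen with earlier results of these data known.

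The genes named were all measured members, and up to 4 genes of each other list with the largest change, with some further ones chosen after their values were seen. There are no replicates and hence no p-values, and the number of arrays limits precision. The steps were tested on data with known changes. Alternatives changed 1 choice at a time. Quantile and loess normalization used limma 3.58.1 in R 4.3.3. The other steps used Python 3.11.15, pandas 2.3.3 and numpy 2.4.6, and figures matplotlib 3.10.9.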

Additional observations from a re-analysis of the deposited data

How the results depend on the processing

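Snrpd3 was lower by at least 0.4 under every alternative tried, with log2 ratios from -0.95 to -0.64. Of 38 splicing genes 2 were called higher and 1 lower, against 16.8% and 20.1% of all genes. Under median scaling 0 were higher and 4 lower (all genes 13.1% and 26.5%), above 500 on the brighter array 0 and 2 of 24 (16.4% and 21.2%), without a filter 6 and 2 of 47 (28.6% and 22.6%), at a threshold of 1 0 and 0 (5.05% and 4.1%), and by probe set 4 and 5 of 75 (17.2% and 20.9%). With a pseudocount of 32, 1 was higher (15.5%), and with loess centring 3, Srsf4 (0.403) being added (18.4%). With the brightest probe set 2 were lower (19.8%) and 2 higher (17.2%), but Hnrnpr (0.353) was lost and Hnrnpdl (0.524) gained. The median log2 ratio was 0.023, and -0.087 under median scaling and -0.034 without the _x_at and _s_at probe sets. Without a filter Sf3b5, Snrpb2 and Snrpc turned to 1.20, 0.71 and 0.82, since very dim probe sets entered. No paired analysis was possible because each genotype has 1 array. Leaving out a replicate was not possible for the same reason. The number of arrays limits precision, as do, for dim probe sets, signals near the bottom of the scale.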

Other observations

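Probe sets that the annotation gives to several genes at once were not used above, and 16 of them include the symbol of a splicing gene, 12 of these above a signal of 250 on the brighter array. Of the 12, 4 are listed for Snurf and Snrpn together. These genes share a transcript of an imprinted locus, expressed from the paternal copy, and Snrpn encodes the SmN protein, a relative of SmB. Their signals were 426.5 in RXRγ mice against 729.0 in control mice, 277.0 against 639.3, 166.9 against 384.9 and 189.7 against 304.8. All 4 were lower in RXRγ mice, with log2 ratios from -1.21 to -0.68, and which of both genes they measure cannot be told apart. The probe sets with 166.9 and 189.7 in RXRγ mice exceeded 250 in control mice only, so that by the filter they could only be lower. The 4 probe sets listed for Hnrnpa3 and Gm6793 had log2 ratios from -0.19 to 0.20, the 3 listed for Hnrnpa1 and 3 other genes had ratios from -0.36 to 0.12, and the 1 listed for Snrpd2 and Gm5848 had 1161 in RXRγ mice and 1351 in control mice (-0.22).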
